A study of Rattus norvegicus with 24 samples.

Results

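The arrays carried 6 mature microRNAs (miRs) made from the rat genes Mir146a, Mir146b and Mir155, which were taken by name, each gene giving a 5p and a 3p arm, out of 758 rat miRs in all. These were rno-miR-146a-5p, rno-miR-146a-3p, rno-miR-146b-5p, rno-miR-146b-3p, rno-miR-155-5p and rno-miR-155-3p. The study asked which miRs change when insulin-producing cells meet inflammatory cytokines, and whether an inhibitor of lysine deacetylases alters that response. INS1 cells, a rat insulinoma line used as a model of the pancreatic beta-cell, were profiled on 24 one-colour arrays, with 8 groups of 3 arrays. They comprised untreated cells (Ctrl), cells given the cytokines IL-1β at 150 pg/ml and IFN-γ at 0.1 ng/ml (Cyt), cells given the broad-spectrum inhibitor Givinostat at 125 nM (Giv_Ctrl), and cells given Givinostat 1 h before the same cytokines (Giv_Cyt), each sampled at 6 h and at 24 h. All groups were cultures of the same tumour-derived line. The submitters' design text calls the 3 arrays of a group technical replicates while the study's text speaks only of triplicates, so the p-values given here measure the spread between arrays, which may be technical.

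IL-1β signals through its receptor, IRAK kinases and TRAF6 to the transcription factor NF-kB, and NF-kB is known to switch on the genes for miR-146a and miR-155. Mature miR-146a and miR-146b are known to repress TRAF6 and IRAK1, a negative feedback on the same pathway, while miR-155 is best known from activated immune cells. A miR hairpin is cut into a short duplex, of which the guide strand, here the 5p arm, is kept in the silencing complex and the passenger strand, here the 3p arm, is mostly degraded. A miR finds its targets chiefly through its seed, the stretch of bases 2 to 8 from the 5′ end.

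The mature sequences are shown because the guides of miR-146a and miR-146b are so alike that a probe for one could in principle take up the other. They are RefSeq sequences placed on the rat assembly GRCr8, written 5′ to 3′ with the seed in capitals.
rno-miR-146a-5p: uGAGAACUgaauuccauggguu
rno-miR-146b-5p: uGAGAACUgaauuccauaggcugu
rno-miR-146a-3p: aCCUGUGAaguucaguucuuu
rno-miR-146b-3p: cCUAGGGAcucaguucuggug
rno-miR-155-5p: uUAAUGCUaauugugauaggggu
rno-miR-155-3p: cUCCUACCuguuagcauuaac
The miR-146 guides shared their seed with each other and with no other miR among the 685 array miRs that had a sequence in the table used. The other 4 members had seeds found in no other miR of that set. Over the 22 bases that the miR-146 guides have in common positions, 20 were identical, including the first 17, and the changes from miR-146a-5p to miR-146b-5p were G18A and U21C, counted from 1 at the 5′ end. miR-146b-5p ran 2 bases further at its 3′ end. The passenger strands of the same hairpins differed in their seeds, so the likeness of miR-146a and miR-146b lay in the guide.

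The hairpins are shown with both mature arms in capitals, the guide first.
Mir146a: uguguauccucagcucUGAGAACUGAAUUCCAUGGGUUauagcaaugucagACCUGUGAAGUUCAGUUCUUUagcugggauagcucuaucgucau
Mir146b: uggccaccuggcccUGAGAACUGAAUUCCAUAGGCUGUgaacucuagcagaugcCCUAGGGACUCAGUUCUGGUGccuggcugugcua
Mir155: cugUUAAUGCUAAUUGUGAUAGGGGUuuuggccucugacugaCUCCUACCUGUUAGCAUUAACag
Mir146a lies at chr10:28349996-28350090 on the minus strand of GRCr8, within the span of the long non-coding gene LOC134480673. Mir146b lies at chr1:255144860-255144947 on the plus strand, within the span of the protein-coding gene C1h10orf95. Mir155 lies at chr11:37261114-37261178 on the plus strand, within its host gene Mir155hg, a long non-coding RNA. Whether these spans are exonic or intronic was not given in the gene table used.

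Each member was measured by a pair of probes of different length, with 8 spots of each on every array and so 16 spots in all. The probes for the miR-146 guides are printed 5′ to 3′. Capitals mark the bases that form no standard pair (A with U or T, G with C) with the other guide.
rno-miR-146a-5p shorter probe: aAccCatggaattcagttc
rno-miR-146a-5p longer probe: aAccCatggaattcagttct
rno-miR-146b-5p shorter probe: ACaGccTatggaattcagtt
rno-miR-146b-5p longer probe: ACaGccTatggaattcagttc
The probes for miR-146a-5p covered its bases 4 to 22 and 3 to 22, and each had 2 mismatches to miR-146b-5p. The probes for miR-146b-5p covered its bases 5 to 24 and 4 to 24, and had 2 mismatches to miR-146a-5p and 2 further bases past its end. These mismatches are T facing G and G facing U, which can pair weakly, whereas those of the miR-146a-5p probes are C facing A and A facing C. How much each probe takes up of the other guide was not tested.

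The scanner marks each spot that is well above background, and a miR counted as detected on an array when 8 or more of its 16 spots bore that mark. By that measure 117 of the 758 miRs were above background on all 24 arrays, 534 on none, and between 129 and 211 on a single array. The beta-cell miRs miR-375-3p and miR-7a-5p were above background on all 24 arrays, so the labelled cell type carried its defining miRs, whereas all 5 miRs of immune and blood cells (miR-142-3p, miR-142-5p, miR-150-5p, miR-223-3p and miR-451-5p) were above background on 0 arrays. Of the liver and muscle miRs, miR-122-5p and miR-133a-3p were detected on 0 arrays and miR-1-3p on 3. Arrays differed in brightness between groups and between slides. The 75th percentile of background-subtracted intensity over the 117 miRs detected throughout was 596 to 1003 in 24h_Cyt and 487 to 571 in 24h_Giv_Cyt, against 271 to 347 in 24h_Ctrl and 303 to 452 in 24h_Giv_Ctrl. Before normalization the median difference of the 168 miRs detected in at least 1 whole group was therefore 0.70 on the log2 scale for 24h_Cyt against 24h_Ctrl and 0.43 for 24h_Giv_Cyt against 24h_Giv_Ctrl, and after quantile normalization these medians lay between -0.01 and 0.02. The arrays came from 4 slides, and no slide held both 24h_Cyt and 24h_Ctrl, so for that comparison slide and treatment cannot be told apart on any 1 slide. The same holds for 24h_Giv_Cyt against 24h_Cyt, 6h_Giv_Cyt against 6h_Cyt, 6h_Giv_Cyt against 6h_Giv_Ctrl, and the time comparisons without cytokines. Slide 1 held 3 arrays, 24h_Cyt replicates 1 and 2 and 6h_Giv_Ctrl replicate 1. They were the brightest of all, with 75th percentiles of 1003, 742 and 682. Their file names also bear a project label that no other array has. How much of the brightness went with slide or label was not tested. Levels below are log2 normalized signals, and since each probe has its own scale, levels of different miRs were not set against each other.

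Of the 6 members, 2 were detected, and both were guides of miR-146. miR-146b-5p was above background on 23 of 24 arrays, treated or not. miR-146a-5p was above background on 6 arrays, namely the 3 of 24h_Cyt and the 3 of 24h_Giv_Cyt. The passenger strands of both genes, and both arms of miR-155, were above background on 0 arrays.

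**Figure D1:**
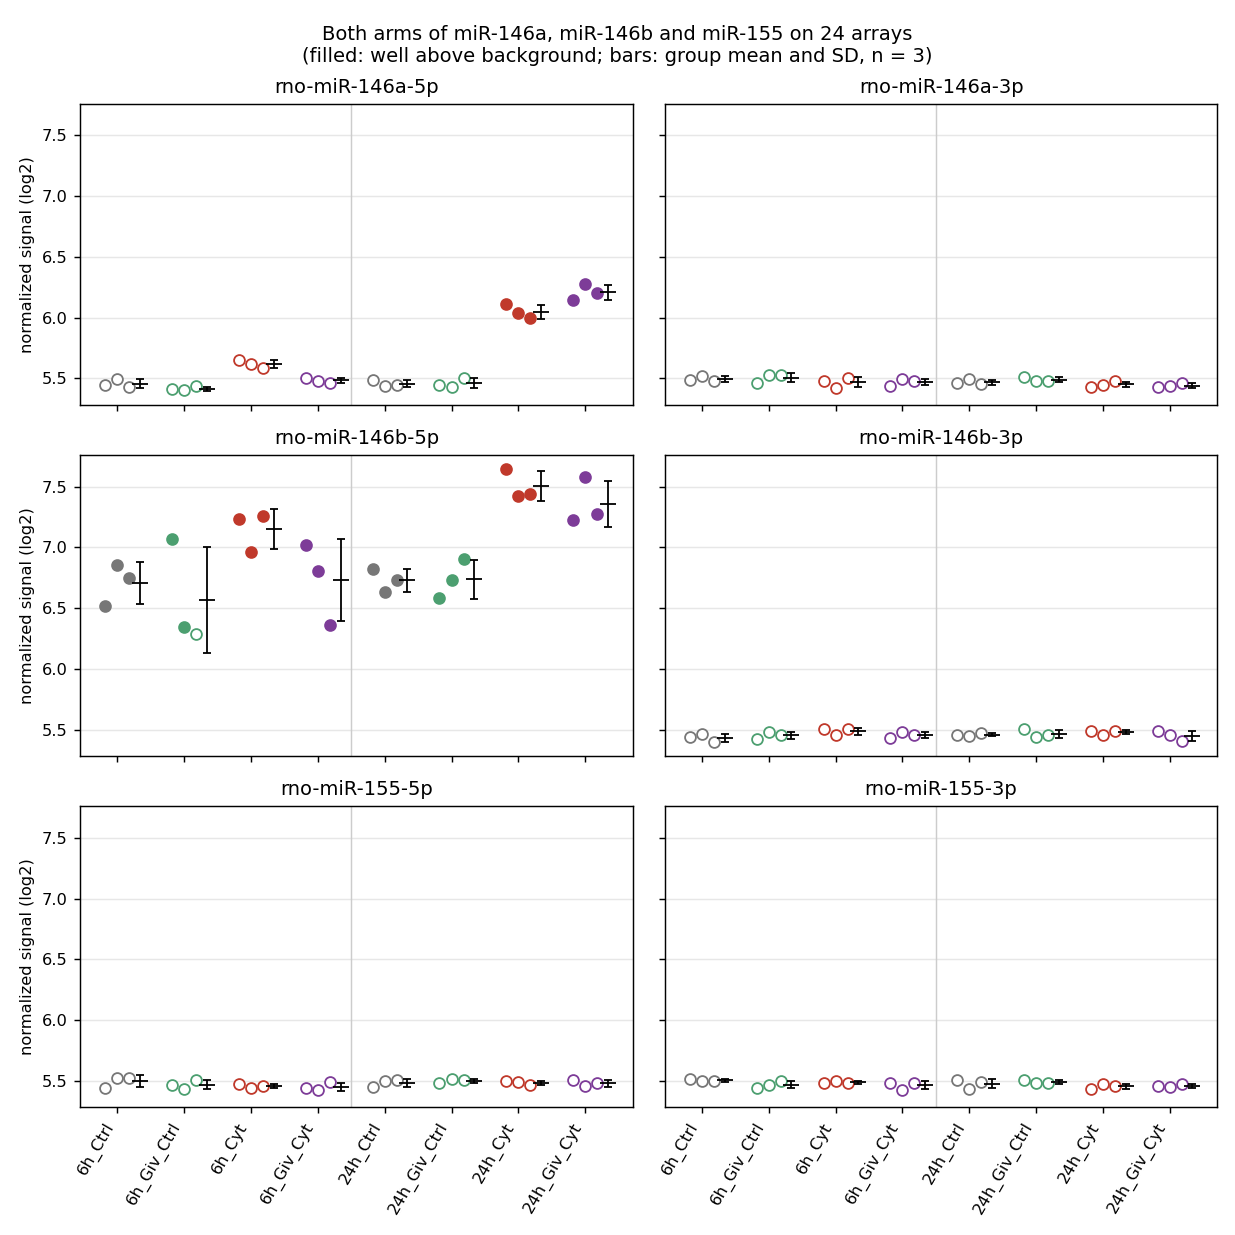
Normalized log2 signal (vertical axis, the same scale in each panel) of the 6 members on each of the 24 arrays, grouped by time and treatment along the horizontal axis, with filled points where the miR was well above background and bars for the mean and SD of 3 arrays. Only miR-146a-5p and miR-146b-5p left the range of 5.40 to 5.53 in which the other 4 members stayed.

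At 24 h the cytokines raised both miR-146 guides, and no other member. These were 2 of the 6 members called in 24h_Cyt against 24h_Ctrl, where 4.09% of all 758 miRs were called (20 higher and 11 lower), a call being a difference in normalized signal of more than 1.10-fold with an adjusted p below 0.05. The split of calls depended on the scaling, with 173 higher and 0 lower without normalization between arrays, and 4 higher and 6 lower when scaled to the 75th percentile of all miRs. For miR-146a-5p the 24h_Ctrl arrays read 5.49, 5.44 and 5.44, and the 24h_Cyt arrays 6.11, 6.04 and 5.99. Every cytokine array thus lay above every control array, with means of 5.46 ± 0.03 (SD, n = 3) and 6.05 ± 0.06. The difference in log2 signal was 0.59 (SE 0.03, 95% confidence interval 0.52 to 0.66, limma adjusted p = 5.09e-10). As the miR was detected on none of the 24h_Ctrl arrays, its increase is given as a bound, at least 1.05-fold, measured against the lowest signal that counted as above background on those arrays.

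miR-146b-5p had a measurable level without cytokines and rose from it. Its 24h_Ctrl arrays read 6.82, 6.63 and 6.73 (mean 6.73 ± 0.09, SD, n = 3), and its 24h_Cyt arrays 7.65, 7.43 and 7.44 (7.50 ± 0.13). The groups did not overlap, as was true of 16.4% of all miRs in the upward direction in this comparison. The normalized signal, in which the background was left, was 1.71-fold higher, a log2 difference of 0.78 (SE 0.18, 95% confidence interval 0.39 to 1.16, limma adjusted p = 0.0175). This call was lost when 24h_Ctrl replicate 2, 24h_Cyt replicate 1 or 24h_Cyt replicate 2 was left out (differences of 0.73, 0.70 and 0.81, limma adjusted p = 0.0679, 0.0850 and 0.0528), and with slide as a fixed term the difference was 0.62 (adjusted p = 0.695).

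With Givinostat present the same cytokines again raised miR-146a-5p at 24 h. The 24h_Giv_Ctrl arrays read 5.45, 5.43 and 5.50 (mean 5.46 ± 0.04, SD, n = 3), and the 24h_Giv_Cyt arrays 6.15, 6.28 and 6.20 (6.21 ± 0.06). No array of one group reached the other. The difference in log2 signal was 0.75 (95% confidence interval 0.68 to 0.82, limma adjusted p = 9.55e-12), or at least 1.18-fold against the background level, in a comparison in which 0.528% of the 758 miRs were called (2 higher and 2 lower, against 17 higher and 5 lower when scaled to the 75th percentile of detected miRs, and 323 higher and 0 lower without normalization). Of the slides, 2 held both groups, and the difference was 0.73 within 1 of them (1 array against 2) and 0.77 within the other (2 arrays against 1).

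For miR-146b-5p under Givinostat, the 24h_Giv_Ctrl arrays read 6.58, 6.73 and 6.90 (mean 6.74 ± 0.16, SD, n = 3), and the 24h_Giv_Cyt arrays 7.22, 7.58 and 7.27 (7.36 ± 0.19). All cytokine arrays were above all reference arrays, as were those of 8.31% of all miRs in this comparison. The difference of 0.62 did not pass the test (95% confidence interval 0.23 to 1.01, limma adjusted p = 0.150). It was 0.45 and 0.82 within the slides that held both groups. The call turned on 1 array of another group, since without 6h_Giv_Ctrl replicate 1, whose spread enters the shared error, the adjusted p was 0.0342.

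At 6 h no member was called, and neither was any of the 758 miRs (0% called by limma in 6h_Cyt against 6h_Ctrl, with 30 miRs at an unadjusted p below 0.05 and 2 called when spots rather than array means were fitted). miR-146a-5p read 5.44, 5.50 and 5.43 in 6h_Ctrl (mean 5.46 ± 0.04, SD, n = 3) and 5.65, 5.62 and 5.59 in 6h_Cyt (5.62 ± 0.03). The cytokine arrays were all higher, yet none had a single marked spot, so the values are signals near background, differing by 0.16 (95% confidence interval 0.09 to 0.23, limma adjusted p = 0.0704). miR-146b-5p read 6.52, 6.86 and 6.74 in 6h_Ctrl (6.71 ± 0.17) and 7.24, 6.96 and 7.26 in 6h_Cyt (7.15 ± 0.16). Its groups did not overlap either, and its difference was 0.44 (95% confidence interval 0.06 to 0.83, limma adjusted p = 0.999). Groups that did not overlap in the upward direction made up 2.24% of all miRs here, 17 in number, of which the miR-146 guides were 2. Within the slide that held both groups, the differences were 0.15 for miR-146a-5p and 0.40 for miR-146b-5p.

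Under Givinostat the 6 h cytokine differences of the guides were smaller in size, and again 0% of miRs were called by limma, with 26 at an unadjusted p below 0.05 and 0 called when spots were fitted. miR-146a-5p read 5.41, 5.41 and 5.44 in 6h_Giv_Ctrl (mean 5.42 ± 0.02, SD, n = 3) and 5.51, 5.48 and 5.47 in 6h_Giv_Cyt (5.48 ± 0.02), a difference of 0.07 between groups that did not overlap, as in 1.72% of all miRs. miR-146b-5p read 7.07, 6.34 and 6.29 in 6h_Giv_Ctrl (6.57 ± 0.43) and 7.02, 6.81 and 6.36 in 6h_Giv_Cyt (6.73 ± 0.34). These groups overlapped widely, and the difference was 0.16 (95% confidence interval -0.23 to 0.55, limma adjusted p = 0.998). The array 6h_Giv_Ctrl replicate 1 stood apart from its group for miR-146b-5p and was the brightest array of the 6 h groups, with a 75th percentile of 682. It shared its slide only with 24h_Cyt arrays, and without it the difference was 0.41 (adjusted p = 0.845).

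Givinostat in the presence of cytokines was tested directly by comparing Giv_Cyt with Cyt. At 24 h miR-146a-5p was higher with Givinostat, by 0.16 (95% confidence interval 0.09 to 0.23, limma adjusted p = 0.0394), the arrays of 24h_Giv_Cyt all lying above those of 24h_Cyt. It was the only one of the 758 miRs called in this comparison (0.132%), in which groups did not overlap upward for 6.33% of all miRs. No slide held both groups, so slide and Givinostat cannot be told apart here. In background-subtracted intensity, which is not normalized, the groups overlapped, at 34.8 to 49.9 in 24h_Giv_Cyt and 26.0 to 44.9 in 24h_Cyt. Without normalization between arrays the median difference of all miRs was itself 0.13 here, and that of detected miRs -0.16. The call was not a firm one. It was lost when any of 12 single arrays out of 24 was left out, with differences from 0.13 to 0.19 over all 24, when the replicate number was a block (adjusted p = 0.0768), and under 12 of the other processing alternatives. The study picked out miR-146a-5p and miR-146b-5p, with other miRs, from these same arrays. Their differences here are therefore not independent evidence of such an effect. The study then followed up miR-146a-5p on the strength of its quantitative PCR as well. In cytokine-treated cells that PCR, as reported, had miR-146a-5p raised by Givinostat at the later time points and lowered at the earliest. For miR-146b-5p the study reports that Givinostat prevented the cytokine rise at the earliest time point. Those PCR measurements were not examined here.

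The corresponding difference of miR-146b-5p at 24 h was -0.15, with overlapping groups (95% confidence interval -0.53 to 0.24, limma adjusted p = 0.967). At 6 h both guides were lower in 6h_Giv_Cyt than in 6h_Cyt without passing the test, and 0% of miRs were called by limma (24 at an unadjusted p below 0.05, 21 called when spots were fitted). For miR-146a-5p the difference in signal was -0.14 (95% confidence interval -0.20 to -0.07, limma adjusted p = 0.400), with no overlap, as in 5.54% of all miRs in the downward direction. For miR-146b-5p it was -0.42 (95% confidence interval -0.81 to -0.04, limma adjusted p = 0.926), and leaving out 1 array moved it between -0.57 and -0.24, without 6h_Giv_Cyt replicate 1 and without 6h_Giv_Cyt replicate 3. This value and the 6 h cytokine difference of the same miR rest on the same 6h_Cyt arrays. No slide held both 6h_Giv_Cyt and 6h_Cyt, so here too slide and Givinostat cannot be told apart.

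With Givinostat alone no difference of a guide passed the test. The difference of miR-146a-5p between Giv_Ctrl and Ctrl was -0.04 at 6 h and 0.00 at 24 h, and that of miR-146b-5p was -0.14 (95% confidence interval -0.53 to 0.25) at 6 h and 0.01 (95% confidence interval -0.38 to 0.40) at 24 h. The 6 h value of miR-146b-5p rested on single arrays and on the scaling, being -0.39 without 6h_Giv_Ctrl replicate 1, which is also the value within the slide that held both groups, -0.0038 without 6h_Giv_Ctrl replicate 3, and 0.14 without normalization between arrays. In both comparisons limma called 0% of miRs, with 34 and 32 at an unadjusted p below 0.05.

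**Figure D2:**
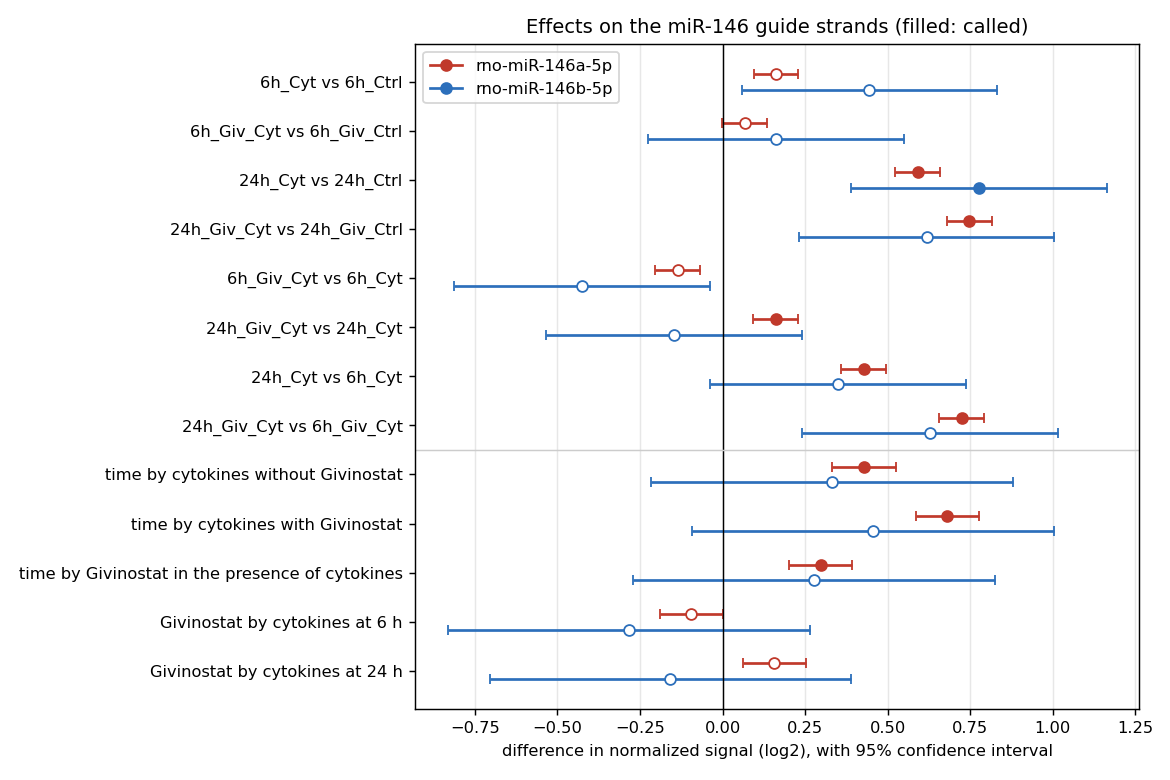
Differences in normalized log2 signal (horizontal axis) for miR-146a-5p in red and miR-146b-5p in blue, with 95% confidence intervals from limma, for 8 comparisons of groups and, under the grey line, for 5 tests of one effect against another. Filled points were called, and the narrower intervals of miR-146a-5p reflect SEs of 0.03 against 0.18 for miR-146b-5p in the comparisons of groups.

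From 6 h to 24 h, miR-146a-5p rose where cytokines were present and was at background on all arrays where they were not. Its signal was 0.43 higher in 24h_Cyt than in 6h_Cyt (limma adjusted p = 8.14e-08, at least 1.07-fold), where 0.792% of miRs were called, and 0.72 higher in 24h_Giv_Cyt than in 6h_Giv_Cyt (limma adjusted p = 1.63e-11, at least 1.16-fold), where 0.396% were. Without cytokines the same time step gave 0.00, and 0.04 under Givinostat, with 0% of miRs called by limma in both comparisons (39 and 30 at an unadjusted p below 0.05). miR-146b-5p differed over time by 0.35 with cytokines (95% confidence interval -0.04 to 0.74, limma adjusted p = 0.449), by 0.63 with cytokines and Givinostat (95% confidence interval 0.24 to 1.02, adjusted p = 0.202), by 0.02 in untreated cells and by 0.17 under Givinostat alone. Without normalization between arrays the first of these was 1.08 (limma adjusted p = 0.00106) and the second 1.03 (adjusted p = 0.00947), both called, and both were also called when spots were fitted (adjusted p = 4.27e-05 and 5.14e-15). Scaled to the 75th percentile of detected miRs, the second was 0.98 with processed signal and 0.98 with total signal (adjusted p = 0.00372 and 0.00115). Whether miR-146b-5p changed from 6 h to 24 h with cytokines therefore depended on the processing. On the 1 slide that held both 24h_Cyt and 6h_Cyt the time differences were 0.39 for miR-146a-5p and 0.33 for miR-146b-5p, and on the slide with 24h_Giv_Cyt and 6h_Giv_Cyt they were 0.72 and 0.54.

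Whether one effect differed from another was tested with interaction terms in the same limma model. The cytokine difference of miR-146a-5p was larger at 24 h than at 6 h by 0.43 without Givinostat (limma adjusted p = 2.12e-05) and by 0.68 with it (adjusted p = 1.53e-08), terms in which 0.528% and 0.396% of miRs were called. Its Givinostat difference in the presence of cytokines moved by 0.30 from 6 h, where it was negative, to 24 h (95% confidence interval 0.20 to 0.39, limma adjusted p = 0.00343), and it was the only miR called in that term (0.132%). That call was lost under 7 of 19 processing alternatives, among them the shorter probe alone (0.19) and slide as a fixed term (0.31, adjusted p = 0.0979), and the first of these 3 terms was lost with the shorter probe alone (0.20, adjusted p = 0.0695). The direct test of whether Givinostat changed the cytokine response gave -0.09 at 6 h and 0.16 at 24 h for miR-146a-5p (limma adjusted p = 0.999 and 0.760). The 24 h term was called, at 0.77 and 0.90, with processed and with total signal scaled to the 75th percentile of detected miRs (limma adjusted p = 0.000381 and 4.73e-07). With both signals all 24 h control arrays of this miR stood at the floor set before the log2. The term then equals the difference of 24h_Giv_Cyt from 24h_Cyt, so these calls cannot show whether the cytokine response changed. After quantile normalization 0% of miRs were called in either term, with 12 and 39 at an unadjusted p below 0.05. For miR-146b-5p the terms were -0.28 and -0.16 for Givinostat by cytokines, 0.33 and 0.46 for time by cytokines, and 0.28 for time by Givinostat, none of them called. Leaving out 1 array moved the 6 h term for Givinostat by cytokines between -0.43 and -0.03, and time by cytokines with Givinostat between 0.21 and 0.60, and the values nearest 0 were those without 6h_Giv_Ctrl replicate 1.

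In order of level, the group means of miR-146a-5p ran from 24h_Giv_Cyt at 6.21 and 24h_Cyt at 6.05 to 6h_Cyt at 5.62, followed by the other 5 groups between 5.42 and 5.48. Those last 5 lie within 0.07 of each other and at background. The order for miR-146b-5p was 24h_Cyt at 7.50, 24h_Giv_Cyt at 7.36 and 6h_Cyt at 7.15, then 24h_Giv_Ctrl at 6.74, 6h_Giv_Cyt and 24h_Ctrl at 6.73, 6h_Ctrl at 6.71 and 6h_Giv_Ctrl at 6.57. Neighbouring groups in the order of miR-146b-5p overlapped in their arrays, except that 6h_Cyt and 24h_Giv_Ctrl did not.

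The background-subtracted intensity, which keeps a true zero but is not normalized, showed how little signal lay under the log2 values of miR-146a-5p. It was 44.9, 37.7 and 26.0 on the 24h_Cyt arrays and 49.9, 42.5 and 34.8 on the 24h_Giv_Cyt arrays. On the 6h_Cyt arrays it was 4.75, 4.19 and 0.915, and on the other 15 arrays it lay between -3.50 and 0.187. Because the background was left in before the log2 was taken, the normalized values of this miR spanned only 5.41 to 6.28 over the same arrays.

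Intensities of miR-146b-5p were 326, 222 and 175 in 24h_Cyt and 45.4, 36.4 and 46.8 in 24h_Ctrl, a ratio of means of 5.62. They were 169, 182 and 128 in 24h_Giv_Cyt against 36.6, 63.6 and 55.4 in 24h_Giv_Ctrl, a ratio of 3.08. At 6 h they were 86.3, 80.2 and 95.5 in 6h_Cyt against 53.3, 43.6 and 35.1 in 6h_Ctrl, a ratio of 1.98. These ratios include the differing brightness of the arrays given above, whose part in them was not tested. They also have the background subtracted, which the normalized values do not. Background-subtracted signal scaled over all miRs gave 1.13 for 24h_Cyt against 24h_Ctrl, not called, where the normalized difference was 0.78. For that scaling limma's variance step was unreliable. Scaled over detected miRs, background-subtracted signal gave 1.20 for 24h_Giv_Cyt against 24h_Giv_Ctrl, where the normalized difference was 0.62. With scaling over detected miRs both comparisons were called.

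**Figure D3:**
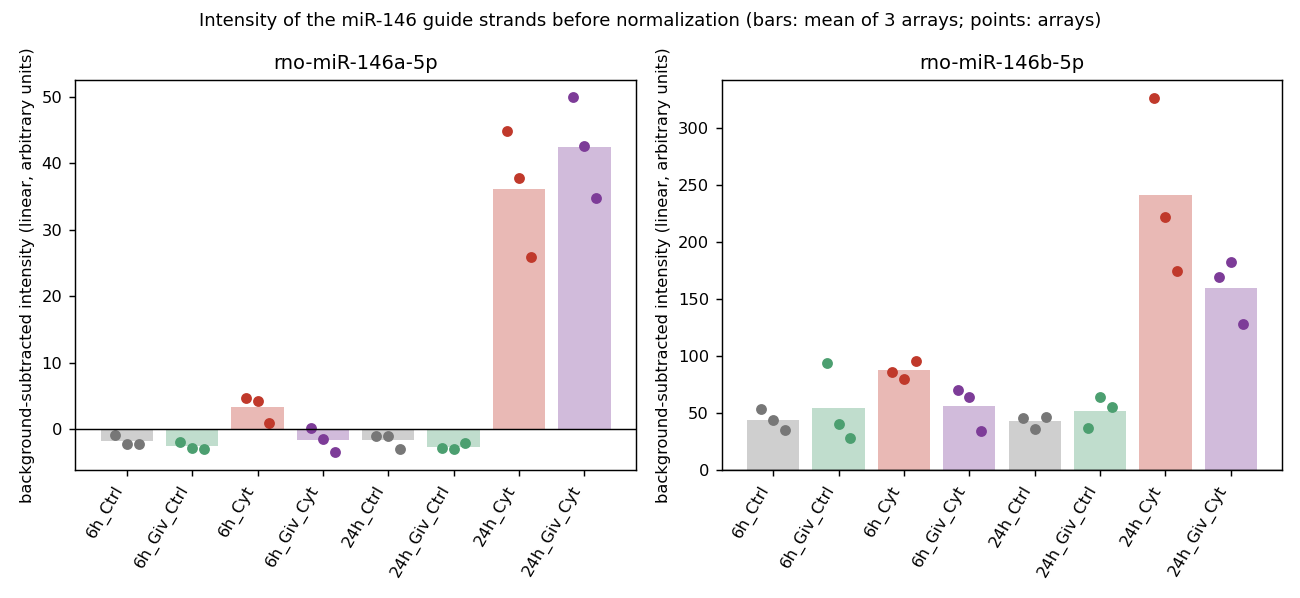
Background-subtracted intensity (vertical axis, linear, arbitrary units) of miR-146a-5p on the left and miR-146b-5p on the right, by group, with points for arrays and bars for the mean of 3. miR-146a-5p stood at 26.0 to 49.9 on the 24 h cytokine arrays and at 4.75 or less on all others, whereas miR-146b-5p was at 28.1 or more on every array.

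The probes of a guide were compared because they differ only in length. For miR-146a-5p, all 8 spots of the 20-base probe were marked above background on each of the 6 arrays of 24 h cytokine cells, 48 spots in all, while the 19-base probe had 7 marked spots, on replicate 1 of each of these groups. The difference of 24h_Cyt from 24h_Ctrl was 0.86 by the longer and 0.32 by the shorter probe, and that of 24h_Giv_Cyt from 24h_Giv_Ctrl was 1.03 and 0.47. Each probe alone gave both calls. For miR-146b-5p the 21-base and 20-base probes gave 0.81 and 0.74 for the former comparison, and 0.71 and 0.53 for the latter. The direction was therefore the same by every probe of both guides at 24 h, and the size depended on the probe chiefly for the dimmer miR.

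**Figure D4:**
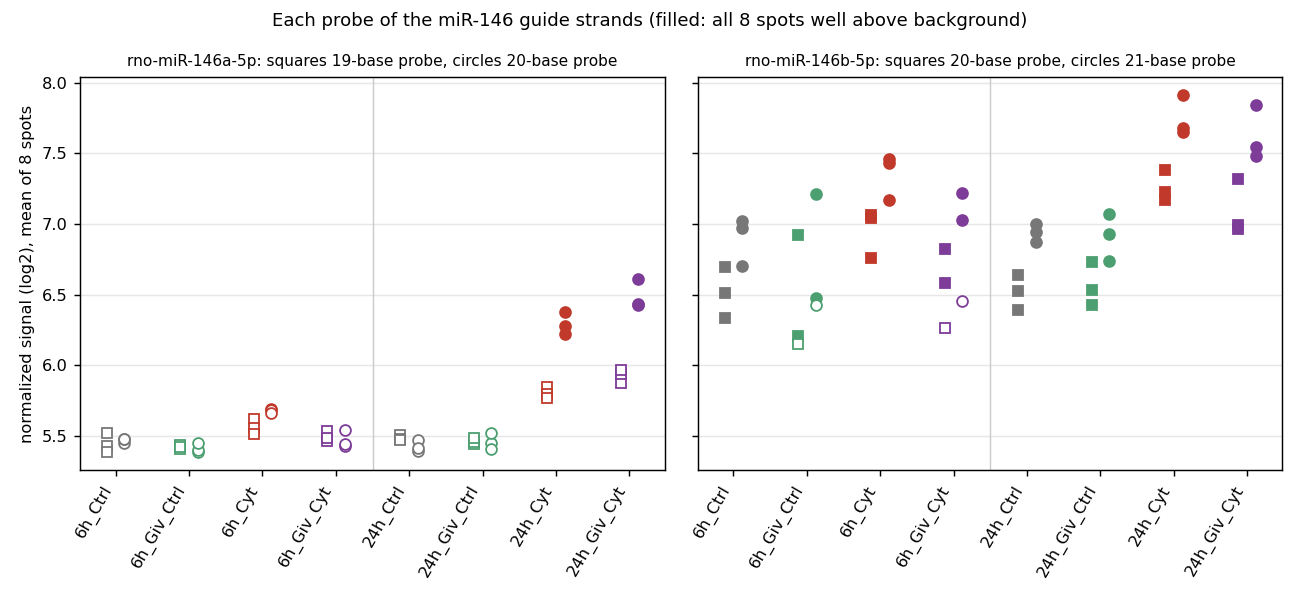
Normalized log2 signal (vertical axis, mean of 8 spots) of each probe of miR-146a-5p on the left and miR-146b-5p on the right, on each array of the 8 groups, with squares for the shorter and circles for the longer probe and filled marks where all 8 spots were well above background. Both probes of each guide were highest in the 24 h cytokine groups, and for miR-146a-5p the longer probe reached 6.61 and the shorter 5.97.

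The passenger strands and miR-155 gave no signal that could be told from background. Over all 24 arrays miR-146a-3p lay between 5.42 and 5.53, miR-146b-3p between 5.40 and 5.51, miR-155-5p between 5.42 and 5.53, and miR-155-3p between 5.43 and 5.51. The 534 miRs that were above background on no array had a median of 5.47, with 5th and 95th percentiles of 5.33 and 5.73, so these members sat in the middle of the undetected miRs. Of their 1536 spots 2 were marked, 1 for miR-146b-3p and 1 for miR-155-5p.

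Cytokines and Givinostat did not move these 4 members by an amount that passed the test. In 24h_Cyt the means were 5.45 ± 0.02 (SD, n = 3) for miR-146a-3p, 5.48 ± 0.02 for miR-146b-3p, 5.49 ± 0.02 for miR-155-5p and 5.45 ± 0.02 for miR-155-3p, and in 24h_Ctrl they were 5.47 ± 0.02, 5.46 ± 0.01, 5.49 ± 0.03 and 5.48 ± 0.04. Across the 12 comparisons of groups their differences in signal ran from -0.05 to 0.06, and the lowest limma adjusted p was 0.417. A miR below the background of the array may still be present, so these values bound what the array could see. On the same arrays the 5p arm of each miR-146 hairpin was detected in the 24 h cytokine groups and the 3p arm was not.

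Whether the guides responded unequally could not be told from these arrays, because the reference groups of miR-146a-5p were at background and its change is only a bound. The per-array difference of their log2 signals is given as a description of the readings. In 24h_Cyt against 24h_Ctrl the signal difference of miR-146a-5p minus that of miR-146b-5p was -0.18 (exact two-sided permutation test, p = 0.1, the smallest that 3 against 3 arrays allow). In 24h_Giv_Cyt against 24h_Giv_Ctrl it was 0.13 (exact permutation p = 0.3), and over both together -0.03 (exact permutation p = 0.73, smallest possible 0.005). Without normalization between arrays these values were -0.81, -0.05 and -0.43 (exact permutation p = 0.1, 0.9 and 0.045).

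A list of 14 other miRs known to respond to NF-kB, IL-1 or Toll-like receptor signalling was set beside the miR-146 guides, of which 9 were above background on at least 1 array. In 24h_Cyt against 24h_Ctrl, 20 of all 758 miRs were called higher and 11 lower. When only the 168 detected miRs were tested, 17 were called higher and 12 lower. The list median was 0.14, against -0.01 for all miRs and -0.0039 for the 168 detected ones. Of the 14 listed miRs, 3 were called higher and 0 lower. Those 3 were miR-21-5p (0.57, limma adjusted p = 0.0360), which is widely raised in inflammation and tumours, miR-30b-5p (0.46, adjusted p = 0.00957) and miR-23b-3p (0.30, adjusted p = 0.0108). With processed and total signal scaled to the 75th percentile of detected miRs, a check chosen after seeing the data, miR-23b-3p was not called (0.09 and 0.07, adjusted p = 0.344 and 1), and with processed signal scaled over all miRs none of the 3 was. With slide as a fixed term, miR-146a-5p was the only 1 of the 758 miRs called in this comparison, so these 3 calls were lost. Without slide 1, 3 of the 758 miRs were called, miR-146a-5p among them. In the other 11 comparisons of groups 0 of the 14 were called. With Givinostat at 24 h the values of these 3 were 0.08, 0.01 and 0.11, in the same order, and the test of whether Givinostat changed their cytokine difference gave -0.48, -0.45 and -0.19 (limma adjusted p = 0.871, 0.784 and 0.871), so a change was not shown. Their differences of 24h_Giv_Ctrl from 24h_Ctrl were 0.24, 0.37 and 0.25, not called.

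The study's quantitative PCR used either let-7c or the mean of miR-103a and miR-423 as reference. Its PCR of INS1 cells treated like those of the arrays used miR-103a and miR-423. For let-7c, which served other experiments, the study states that stability under cytokines had been tested. Here both arms of miR-423 were read because the arm is not given in the sources used here. The difference of let-7c-5p in 24h_Cyt from 24h_Ctrl was -0.38 (limma adjusted p = 0.0449). It stayed called with normexp correction (-0.38) and with processed and total signal scaled over detected miRs (-0.63 and -0.65). It was not called with processed signal scaled over all miRs (-0.70), and was 0.62 without normalization between arrays (limma adjusted p = 0.0979). With slide as a fixed term, and without slide 1, 0 of the 758 miRs were called lower in this comparison. The call of let-7c-5p as lower was therefore lost in both. No other reference was called in any cytokine comparison, but miR-423-3p was above background on 0 arrays and miR-423-5p on 1.

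The miRs whose array values ran most like those of the guides were found by Pearson's r over the 24 arrays among 167 others, as a description only, since the arrays share treatments, brightness and slides. miR-146a-5p was most like miR-3584-5p (0.842), miR-146b-5p (0.815), miR-29a-3p (0.709), miR-29c-3p (0.683) and miR-29b-3p (0.668). By Spearman's rho miR-3584-5p was no longer among its nearest 5 (rho 0.428), and the other 4 were. miR-146b-5p was most like miR-29c-3p (0.876), miR-29a-3p (0.825), miR-146a-5p (0.815), miR-101a-3p (0.807) and miR-21-5p (0.786), and all 5 were also its nearest by Spearman's rho. Between the guides, r was 0.768 over the 12 arrays with cytokines and 0.394 over the 12 without, where miR-146a-5p was at background.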

How the data were processed

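Total RNA of INS1 cells was labelled with Cy3 and hybridised to one-colour Agilent rat miRNA arrays. The authors deposited the scanner's spot intensities (Agilent Feature Extraction; the submitters' notes give version 9.1) and a table of log2 values per miR, which equalled the median over a miR's 16 spots after quantile normalization of the deposited intensities (median absolute difference 2.63e-10). The array's own probe coordinates were not used.

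Here each spot's median foreground value was used as scanned, with no background subtracted, 434 negative and 281 positive control spots were removed per array, and the values were quantile normalized, converted to log2 and averaged over the 16 spots. All 758 miRs were fitted with limma 3.58.1 in R 4.3.3 on array means, with 8 group means and 16 residual degrees of freedom. The study's methods gave the preprocessing and thresholds, but they fitted spots with a pooled correlation, which is an alternative here because spots of 1 array share its RNA. P-values were adjusted by Benjamini-Hochberg within each of 12 comparisons and 5 interaction terms. A call needed a difference past the study's log2 threshold, which is 1.10-fold, and an adjusted p below 0.05. The code was tested on simulated data. The number of arrays limits the precision.

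The members were all miRs of the array from the 3 genes, both arms: 6 in number, 2 more than the 4 foreseen when the rule was written. Other named miRs were those called from the list of NF-kB responsive miRs, the reference miRs, the cell type markers and the 5 miRs most like each guide. Members and lists were chosen with earlier results of these data known. No pair of arrays held identical values. Samples were grouped by their labels, and the labels' replicate numbers did not pair the arrays: the deviations of same-numbered arrays from their group means had a median correlation of 0.11, with 42 of 84 pairs above 0.1. Alternatives changed the spots, signal, background correction, normalization, filter, slide, block and threshold, or left out an array. Figures used matplotlib 3.10.9 under Python 3.11.15.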

Additional observations from a re-analysis of the deposited data

Results flagged for a closer look

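The cytokine difference of miR-146a-5p was larger at 24 h than at 6 h, by 0.43 on the log2 scale without Givinostat (limma adjusted p = 2.12e-05) and by 0.68 with Givinostat (adjusted p = 1.53e-08). Its Givinostat difference in the presence of cytokines was also unequal at the time points, by 0.30 (limma adjusted p = 0.00343), being negative at 6 h and positive at 24 h. These are listed because the test of the difference between time points was itself passed. Time and slide overlap in part, no slide held both Giv_Cyt and Cyt at either time, and the 6 h values of miR-146a-5p were at background on every array.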

How the results depend on the processing

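Over 1307 alternative values of 35 results, 1223 were counted as the same. For most this meant the same side of the threshold and a direction not reversed, a difference of 0 included. Values within a slide counted as the same when they differed from the main value by less than the SD of arrays within groups. Lists of the most similar miRs were judged by how many miRs they shared. miR-146a-5p was called in 43 of 43 alternatives in each of 24h_Cyt against 24h_Ctrl (0.32 to 4.27), 24h_Giv_Cyt against 24h_Giv_Ctrl (0.47 to 5.18), 24h_Cyt against 6h_Cyt and 24h_Giv_Cyt against 6h_Giv_Cyt. The upper ends, 4.27 and 5.18, were the same against the 6 h groups as against the controls, because scaled signals set dim arrays to a floor before the log2. Those sizes depend on the floor chosen, and only the bounds given above can be stated. The causes of the changes below were not tested, all values are log2 differences, and limma's variance step was unreliable for processed signal scaled over all miRs, where most dim values sit at the floor.

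The call of miR-146a-5p in 24h_Giv_Cyt against 24h_Cyt was lost with the median over spots or the deposited table (0.16 each), the shorter probe (0.12), the longer probe (0.20), outlier spots left out (0.14), normexp correction (0.12), no normalization (0.18), detected miRs alone tested (0.16), slide as a fixed block (0.13) or random block (0.16), without slide 1 (0.21), with only the groups compared (0.16), and for 12 of 24 arrays left out (0.13 to 0.16, within 0.13 to 0.19 over all 24). With normexp correction the limma adjusted p was 0.0140, and it was the size of the difference that fell short of the log2 threshold. With the replicate block the call was also lost (0.16, adjusted p = 0.0768). The block moved the calls over all miRs from 31 to 30 in 24h_Cyt against 24h_Ctrl and from 4 to 4 in 24h_Giv_Cyt against 24h_Giv_Ctrl, and changed no other call of a guide. The term for Givinostat by cytokines at 24 h became called with processed signal (0.77) and total signal (0.90), both scaled over detected miRs and both with the control arrays at the floor. Time by cytokines without Givinostat was lost with the shorter probe (0.20). Time by Givinostat in the presence of cytokines was lost with the shorter probe (0.19), outlier spots left out (0.25), processed signal scaled over all miRs (0.60), no normalization (0.30), detected miRs alone (0.30), slide as a fixed block (0.31) and only the groups compared (0.30). In 6h_Cyt against 6h_Ctrl, leaving out 1 array gave 0.15 to 0.18, called for 4 of 24.

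For miR-146b-5p, fitting spots with a pooled correlation called 6h_Cyt against 6h_Ctrl (0.44), 24h_Giv_Cyt against 24h_Giv_Ctrl (0.62), 6h_Giv_Cyt against 6h_Cyt (-0.42), 24h_Cyt against 6h_Cyt (0.35), 24h_Giv_Cyt against 6h_Giv_Cyt (0.63), and time by cytokines without (0.33) and with Givinostat (0.46). Total signal called 6h_Cyt against 6h_Ctrl (0.78) and 24h_Giv_Cyt against 24h_Giv_Ctrl (1.19), which processed signal over detected miRs (1.20) and no normalization (1.09) called too, as the latter did time by cytokines without Givinostat (1.09) and 24h_Cyt against 6h_Cyt (1.08). 24h_Giv_Cyt against 6h_Giv_Cyt was called with processed (0.98) and total signal (0.98) over detected miRs and without normalization (1.03). The call in 24h_Cyt against 24h_Ctrl was lost with processed signal over all miRs (1.13), slide as a fixed block (0.62), without slide 1 (0.71), and for 3 of 24 arrays left out (0.70 to 0.81, within 0.70 to 0.82 over all 24). Leaving out 1 array gave 0.51 to 0.70 in 24h_Giv_Cyt against 24h_Giv_Ctrl. Uncalled differences turned sign. 6h_Giv_Ctrl against 6h_Ctrl was 0.14 and 24h_Giv_Ctrl against 6h_Giv_Ctrl -0.0028 without normalization. 24h_Giv_Ctrl against 24h_Ctrl was -0.024 by the longer probe, -0.025 with slide fixed, -0.043 with processed and -0.046 with total signal, and -0.071 to 0.089 with 1 array left out. 24h_Ctrl against 6h_Ctrl was -0.034 by the median over spots and the deposited table, -0.0085 without normalization, -0.10 with slide fixed and -0.024 with it random, and -0.073 to 0.096 with 1 array left out. Givinostat by cytokines at 24 h was 0.0031 with processed signal, 0.017 with total signal and 0.019 with slide fixed, and time by Givinostat -0.051 without normalization. Without normalization the guides' signal differences differed by -0.045 under Givinostat and by -0.43 over both comparisons (exact permutation p = 0.045).

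Calls over all 758 miRs, 31 in 24h_Cyt against 24h_Ctrl, became 1 with slide fixed (miR-146a-5p), 3 without slide 1, 10 and 68 with processed signal over all and over detected miRs, 48 with pooled spots, 50 with total signal and 173 without normalization. The 4 in 24h_Giv_Cyt against 24h_Giv_Ctrl became between 1, with only the groups compared, and 323, without normalization, and the 1 in 24h_Giv_Cyt against 24h_Cyt became 0 to 24. The low signal of miR-146a-5p over background limits the size of its changes.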
